A study of Mus musculus with 8 samples.

Results

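NAD synthesis and sirtuin genes were described in tibialis anterior, a fast hindlimb muscle of the mouse, after deletion of Sdhc in muscle fibres. The set held 10 of the 23930 genes in the table and was taken by exact gene symbol: the nicotinamide riboside kinases Nmrk1 and Nmrk2, the nicotinamide phosphoribosyltransferase Nampt, the adenylyl transferases Nmnat1 and Nmnat3, the NAD kinases Nadk and Nadk2, the transhydrogenase Nnt, and the sirtuins Sirt1 and Sirt3. The symbols were chosen by pathway role with the KO and WT values of this same table already known, so their differences between KO and WT are a description and are given without a p-value.

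The KO group was 4 libraries from mice that carried a tamoxifen-inducible Cre under the skeletal actin promoter HSA together with floxed Sdhc. The WT group was 4 libraries from littermates with the same Cre and no floxed allele. Mice of both groups received tamoxifen when 12 weeks old, and the muscle was collected after a further 20 weeks. The protocol names a C57/B6 background, whereas the genotype entries read C57BL/6 for WT and C57BL/7 or C57BL/8 for KO. The RNA came from whole muscle, so it also held transcripts of cells in which the HSA promoter does not drive the Cre.

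Libraries held 4.77 to 7.28 M reads in KO and 5.99 to 7.09 M reads in WT (M, 1000000), each gene being read through 1 amplicon and given as RPM (reads per 1000000 reads). The targeted transcript, Sdhc, had a mean of 26 ± 16 RPM in KO, against 696 ± 91.8 RPM in WT (SD, n = 4 each), so that KO held 3.73% of the WT mean (p = 0.0286 by an exact two-sided permutation test, its minimum with 4 libraries a group). The 8 muscle fibre markers summed to between 77453 and 125222 RPM in KO and between 100933 and 157888 RPM in WT, so the defining transcripts of the labelled tissue were abundant in both groups. KO 4 and WT 1 were the libraries with Xist RNA, at 98.9 and 77.3 RPM. Over all tested genes the median log2 fold change, KO over WT, was 0.13 on the log2(RPM + 1) scale and 0.01 after rescaling with TMM factors (trimmed mean of M values, which discount genes that take a large share of reads). Log2 fold changes below are on the first of these scales with the SE of limma's fit, and the value relative to that median follows where it matters.

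NAD carries electrons from fuel oxidation to the respiratory chain and is also consumed by sirtuins, which remove acyl groups from proteins, and by ADP-ribosyltransferases. Muscle rebuilds NAD mainly by salvage: NAMPT turns nicotinamide into nicotinamide mononucleotide, the NMRK kinases make the same mononucleotide from nicotinamide riboside, and the NMNAT enzymes join it to the adenylyl part of ATP. NAD kinases phosphorylate NAD to NADP, and the transhydrogenase NNT of the inner mitochondrial membrane reduces NADP with electrons from NADH. Complex II, of which SDHC is a membrane anchor, passes electrons from succinate to the same chain.

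Of the 10 genes, Nmrk2 was the one that differed between the groups in the fit over all genes. All 10 passed the filter of at least 1 RPM in at least 4 libraries, and 11087 genes were tested. By limma at an adjusted p under 0.05, 1 of the 10 was called, higher in KO, against 0.803% of all tested genes called in either direction and 0.523% called higher. The KO and WT libraries did not overlap for 1 of the 10, against 9.1% of all tested genes. Since the genes were chosen with these values known, nothing is read from either count. The other 9 had log2 fold changes between -0.36 and 0.28. The median over the 10 was 0.05, against 0.13 over all tested genes. In deposited RPM 7 of the 10 had a positive log2 fold change and 3 a negative one, but 2 were positive and 8 negative after TMM rescaling, so the sign of the small differences follows the scale. The plot of level against difference shows Nmrk2 apart from the other 9.

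**Figure D1:**
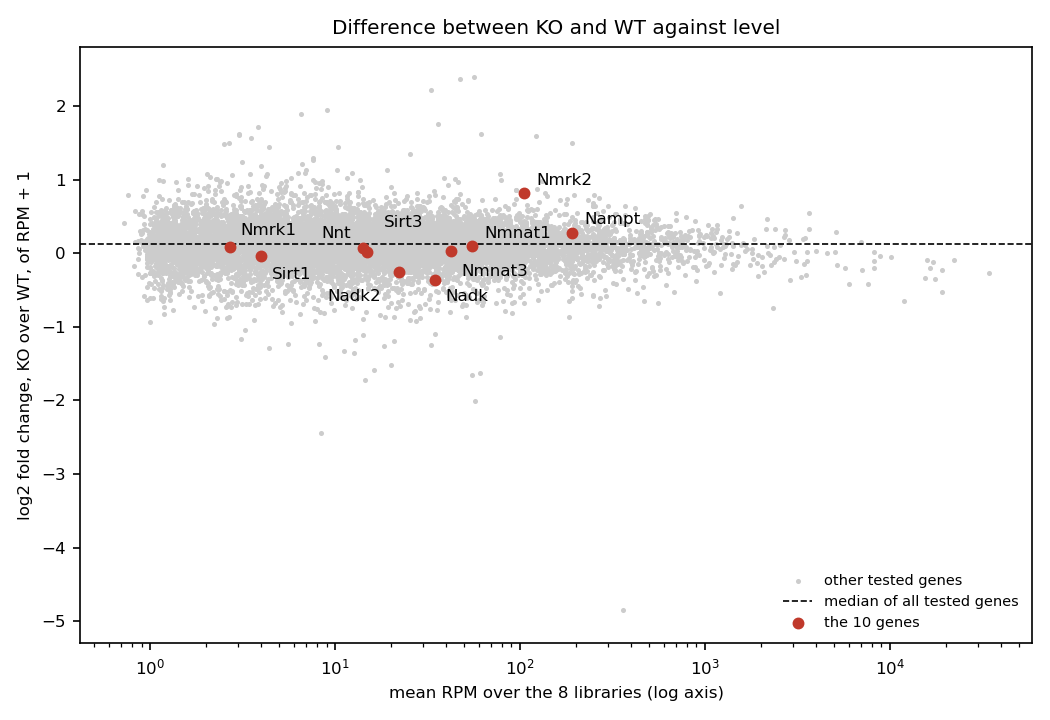
Mean RPM over the 8 libraries (log axis) against the log2 fold change of KO over WT on the log2(RPM + 1) scale, for all tested genes (grey) and the 10 genes of the set (red). Nmrk2 lay at 0.82 and the other 9 between -0.36 and 0.28, around the dashed median of all genes at 0.13. The single grey point near the bottom is Sdhc.

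Nmrk2 encodes the nicotinamide riboside kinase found mainly in skeletal muscle and heart. It stood at 121, 121, 154 and 142 RPM in KO 1 to KO 4, against 63.9, 87.5, 67.9 and 85.5 RPM in WT 1 to WT 4. Every KO library lay above every WT library, and the lowest KO value was well clear of the highest WT value. The means were 134 ± 16.1 RPM in KO and 76.2 ± 12 RPM in WT (SD, n = 4 each), a ratio of means of 1.76. The log2 fold change was 0.82 (SE 0.14), or 0.69 relative to the median gene, and ranked 105 of the 11087 tested genes from the highest down. Between 453 and 1032 reads lay behind each value. The exact 95% binomial interval (Clopper-Pearson, counting error alone) was 111 to 131 RPM in KO 2, the lowest KO library, and 80.2 to 95.3 RPM in WT 2, the highest WT library.

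The groups were also apart for Nmrk2 after TMM rescaling and relative to Nampt, but not relative to Nmrk1. After division by TMM factors it stood at 124, 117, 135 and 136 RPM in KO, against 67.4, 89.6, 75.6 and 85.2 RPM in WT. Set against Nampt within each library, a ratio that library size does not touch, there were 0.688, 0.661, 0.581 and 0.676 Nmrk2 reads per Nampt read in KO, against 0.511, 0.531, 0.394 and 0.37 in WT. The ratio too was higher in every KO library than in any WT library. Set against Nmrk1, which had 10 to 26 reads per library, Nmrk2 overlapped between the groups (38.5 to 79.4 in KO and 17.4 to 47.6 in WT). Of the libraries with Xist, KO 4 was below KO 3 alone in Nmrk2 RPM and WT 1 was the lowest in WT, and Nmrk2 was called in a fit with a term for Xist. Its call was lost when WT 3 was left out (log2 fold change 0.77), where 16 genes in all were called, and when KO 3 and WT 3, the extremes of the TMM factors at 1.14 and 0.898, were both left out (0.70, 9 genes in all). In the remaining 18 of 20 alternatives it was called, with log2 fold changes over all 20 between 0.69 and 0.89. All of these refit the same libraries for a gene chosen with its values known. They describe how the value depends on the processing and are not separate evidence.

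**Figure D2:**
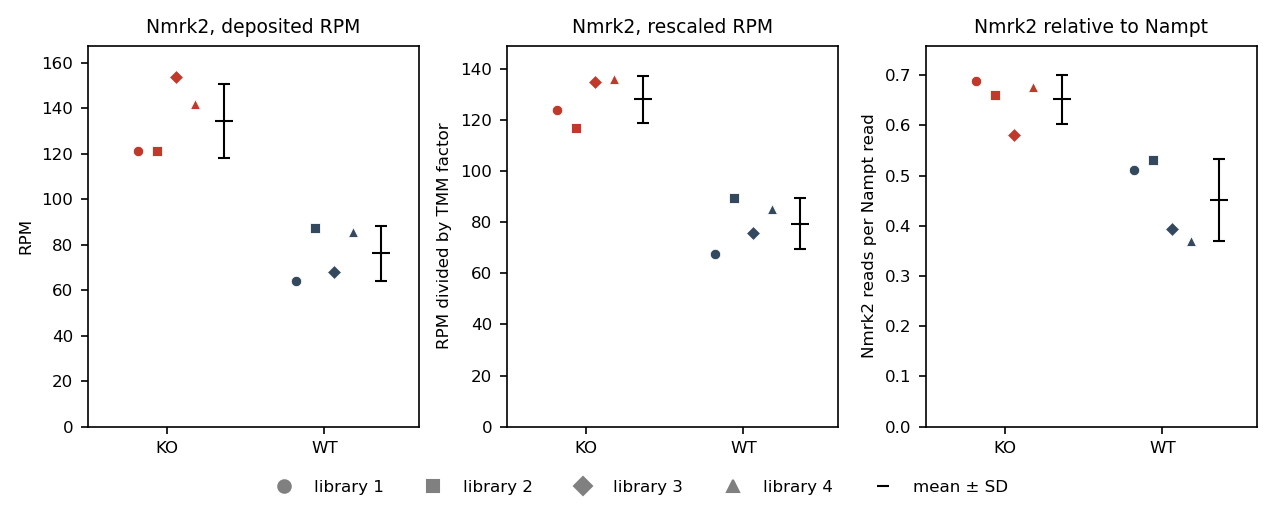
Nmrk2 in each library as deposited RPM, as RPM divided by the TMM factor, and as Nmrk2 reads per Nampt read, with KO in red, WT in dark blue, marker shape for library 1 to 4, and mean ± SD in black. On all 3 scales the 4 KO libraries sit above the 4 WT libraries, with means of 134 and 76.2 RPM, 128 and 79.4 rescaled RPM, and 0.652 and 0.452 reads per Nampt read.

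Marker lists of muscle fibres and other cells were read in the same libraries. Of the 8 muscle fibre markers summed above, 1 had a positive log2 fold change, and their median was -0.22, against 0.13 over all tested genes. Limma, edgeR and DESeq2 called 0 of them, and 1 was lower at an unadjusted p under 0.05 in limma. The 8 endothelial markers all had a positive log2 fold change, with a median of 0.44. After TMM rescaling all 8 were still positive, with a median of 0.31. Limma, edgeR and DESeq2 called 0 of the 8, while in limma 5 had an unadjusted p under 0.05, as did 16.1% of all tested genes. They summed to between 486 and 680 RPM in KO and between 329 and 490 RPM in WT. Among 7 macrophage markers Cd68, a lysosomal protein, rose (9.95 ± 2.97 RPM in KO, against 3.92 ± 0.865 RPM in WT, with an adjusted p of 0.0192 by limma, n = 4 each). Cd68 was the only one of the 7 that limma called, and 5 of the 7 had a positive log2 fold change, or 4 after TMM rescaling. The 7 summed to 91.1 to 136 RPM in KO and 66.9 to 119 RPM in WT. Lyz2 alone stood at 61.4 to 93.9 RPM in KO and 45.3 to 88.3 RPM in WT. Fabp4, a lipid chaperone of fat and capillary cells, rose (302 ± 31.5 RPM in KO, against 194 ± 31.2 RPM in WT, with an adjusted p of 0.0404 by limma, a call lost in edgeR and after TMM rescaling), while Adipoq, the defining adipocyte transcript, was at most 1.65 RPM in any library. The tendon factor Scx fell (8.77 ± 2.55 RPM in KO, against 19.7 ± 2.56 RPM in WT, with an adjusted p of 0.0164 by limma), and the 5 tendon markers summed to 71.0 to 182 RPM in KO and 132 to 212 RPM in WT. Of these 5, 0 had a positive log2 fold change, with a median of -0.40, or -0.53 after TMM rescaling. Scx was the only tendon marker that limma called. Limma called 0 of the fibroblast, satellite cell, Schwann cell and red blood cell markers. Their median log2 fold changes were 0.18, 0.11, 0.00 and 0.26. The part of these marker levels in the values of Nmrk2 was not tested. In whole muscle, fewer cells of a type and less RNA per cell cannot be told apart.

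Nmrk1, the kinase for the same substrate that most tissues express, was close to the lower limit of the filter. It stood at 2.79, 3.14, 3.39 and 1.79 RPM in KO, against 3.67, 3.17, 1.43 and 2.27 RPM in WT. These are 10 to 26 reads per library, and the groups overlapped throughout. The log2 fold change was 0.08 (SE 0.24). The spread between libraries, 25.4% of the mean in KO and 37.7% in WT, was near the 24.5% that counting alone gives at this depth, so a moderate difference in Nmrk1 was not detectable here. Amplicons differ in how well they amplify, so levels of different genes, such as Nmrk1 and Nmrk2, are not compared as amounts of RNA.

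The start regions of the kinase pair also differ in sequence, and they are shown with that of Nampt because Nmrk2 alone of the salvage genes stood apart in its values. Each is the 250 bases before the annotated start in RefSeq on GRCm38.p6, given 5′ to 3′ on the gene's strand, for Nmrk2 at chr10:81202038-81202287 (minus strand), Nmrk1 at chr19:18631766-18632015 (plus strand) and Nampt at chr12:32820085-32820334 (plus strand). Capitals mark TATAAA, the core of a TATA box, and CANNTG, the E-box core that myogenic and many other bHLH factors bind, both searched on both strands.
Nmrk2: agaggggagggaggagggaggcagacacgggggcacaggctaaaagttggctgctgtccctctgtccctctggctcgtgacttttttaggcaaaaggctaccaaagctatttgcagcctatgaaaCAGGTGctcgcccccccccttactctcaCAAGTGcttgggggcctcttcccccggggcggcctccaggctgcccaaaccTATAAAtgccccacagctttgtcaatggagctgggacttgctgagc
Nmrk1: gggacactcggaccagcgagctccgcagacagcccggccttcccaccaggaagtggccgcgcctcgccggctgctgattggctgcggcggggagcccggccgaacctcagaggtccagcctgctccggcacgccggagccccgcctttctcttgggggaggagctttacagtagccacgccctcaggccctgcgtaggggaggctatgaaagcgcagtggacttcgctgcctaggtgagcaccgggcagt
Nampt: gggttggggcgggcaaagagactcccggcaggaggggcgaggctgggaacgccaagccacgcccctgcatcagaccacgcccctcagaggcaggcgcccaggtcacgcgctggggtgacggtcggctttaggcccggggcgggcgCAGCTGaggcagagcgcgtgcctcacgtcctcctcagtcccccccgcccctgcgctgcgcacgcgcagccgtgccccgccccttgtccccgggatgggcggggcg
The table of start regions matched 8 of the 10 genes with 11 starts, and Nadk2 and Nnt had no entry. TATAAA was found in 1 of the 11, that of Nmrk2, where it begins 46 bases before the start, and in 12.4% of all 32851 start regions. CANNTG, which includes CACGTG, was found in 9 of the 11 (not at the start of Nmrk1 or at 1 of the 2 starts of Sirt3) and in 66.2% of all. The 2 regions of Nmnat1 overlap and share 1 CANNTG match, so the 11 are not independent. By gene, CANNTG was found for 7 of the 8. CACGTG, a clock core, contains ACGTG, which is 1 form of the hypoxia core. Both were found at starts of Nadk and Sirt1, and ACGTG alone at the start of Nampt. They were found in 6.02% and 16.6% of all start regions. Other forms of the hypoxia core, such as GCGTG, were not searched. The Nmrk2 region held neither CACGTG nor ACGTG. Its CpG dinucleotides were at 0.231 of the number its base content would give, against 0.702 in Nmrk1, 0.756 in Nampt and a median of 0.374 over all start regions. The regions rest on the RefSeq start, and GENCODE M21 places several starts elsewhere. There Nampt begins at 32819545, before its whole region, and Nmrk2 at 81202051 and Nmrk1 at 18631950, within theirs. The Sirt1 region, 63339036 to 63339285, lies inside that gene (63319005 to 63381704). Matches and distances therefore depend on the start chosen. All are matches of letters and say nothing on whether a factor binds.

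Nampt, the enzyme that limits salvage from nicotinamide, had the highest RPM of the set. It stood at 176, 183, 264 and 210 RPM in KO, against 125, 165, 172 and 231 RPM in WT. The groups overlapped, since WT 4 lay above KO 1, KO 2 and KO 4, and KO 3 was the highest of all. The means were 208 ± 40 RPM in KO and 173 ± 43.8 RPM in WT (SD, n = 4 each), with a log2 fold change of 0.28 (SE 0.18) that became 0.15 after TMM rescaling, 0.14 without WT 1, 0.16 without KO 3 and 0.43 without WT 4. At 875 to 1526 reads per library, counting error was 2.91% of the value, far below the spread between libraries of 19.2% in KO and 25.3% in WT.

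The adenylyl transferases differed between the groups by less than their spread. Nmnat1, the nuclear enzyme, stood at 52.6, 60.1, 67.8 and 47 RPM in KO, against 57.1, 49.1, 46.5 and 58.9 RPM in WT. Nmnat3, described as the mitochondrial enzyme, stood at 46, 41.7, 41.2 and 41.5 RPM in KO, against 33.4, 44.6, 42.8 and 47.8 RPM in WT. Both overlapped fully between the groups, with log2 fold changes of 0.10 (SE 0.15) and 0.03 (SE 0.14). After TMM rescaling both were slightly negative, at -0.03 and -0.10. Nmnat2, the third enzyme, known from neurons, was at most 0.628 RPM and was not tested.

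The NAD kinases varied more between libraries of 1 group than between the groups. Nadk, the cytosolic kinase, stood at 24, 23, 22.3 and 55.2 RPM in KO, against 26.4, 47.1, 41.5 and 37.2 RPM in WT. KO 1 to KO 3 lay below all WT libraries, while KO 4 lay above all of them. The means were 31.1 ± 16.1 RPM in KO and 38 ± 8.76 RPM in WT (SD, n = 4 each), and the log2 fold change of -0.36 (SE 0.25) became -0.67 without KO 4, the lower end of its alternatives, whose other end was -0.19. The exact 95% interval of KO 4, 49.9 to 60.9 RPM from 402 reads, was clear of those of the other KO libraries, of which the highest reached 28.2 RPM. Nadk remained uncalled in every alternative tried. Nadk2, the mitochondrial kinase, stood at 14, 15.7, 22.8 and 27.5 RPM in KO, against 24.1, 14.4, 27.5 and 30.4 RPM in WT. The groups overlapped, with 1 low WT library beside 2 low KO libraries, and the log2 fold change of -0.26 (SE 0.23) ran from -0.48 without WT 2 to -0.11 without KO 1 when 1 library was left out. Both kinases lay below the median gene, by 0.49 and 0.38 on the log2 scale.

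Nnt, the transhydrogenase, is known as the gene that the C57BL/6J substrain carries with a deletion of several exons, and the labels do not give the substrain. Its amplicon gave 16.8, 13.2, 9.99 and 18.4 RPM in KO, against 17.2, 11, 12 and 14.7 RPM in WT. The groups overlapped, and no library stood at or near 0, with 56 to 134 reads in each. The log2 fold change was 0.07 (SE 0.20). Where the amplicon lies relative to that deletion is not stated in the labels or the table, so these values do not show which allele the mice carried.

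Sirt1, the nuclear deacetylase, stood at 2.46, 3.77, 5 and 4.67 RPM in KO, against 4.94, 4.01, 3.28 and 3.89 RPM in WT. These are 15 to 35 reads per library, with KO 1 the lowest and KO 3 the highest of all. Sirt3, the main deacetylase of the mitochondrial matrix, stood at 15.4, 17.2, 15.3 and 12.5 RPM in KO, against 14.5, 15.7, 14.1 and 14.9 RPM in WT. KO 2 and KO 4 enclosed all other libraries. The log2 fold changes were -0.04 (SE 0.21) and 0.02 (SE 0.15). Sirt3 had the narrowest range of the set, its highest library being 1.37 times its lowest. The plot of the set by library shows the separation in Nmrk2 and the lone high Nadk value of KO 4.

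**Figure D3:**
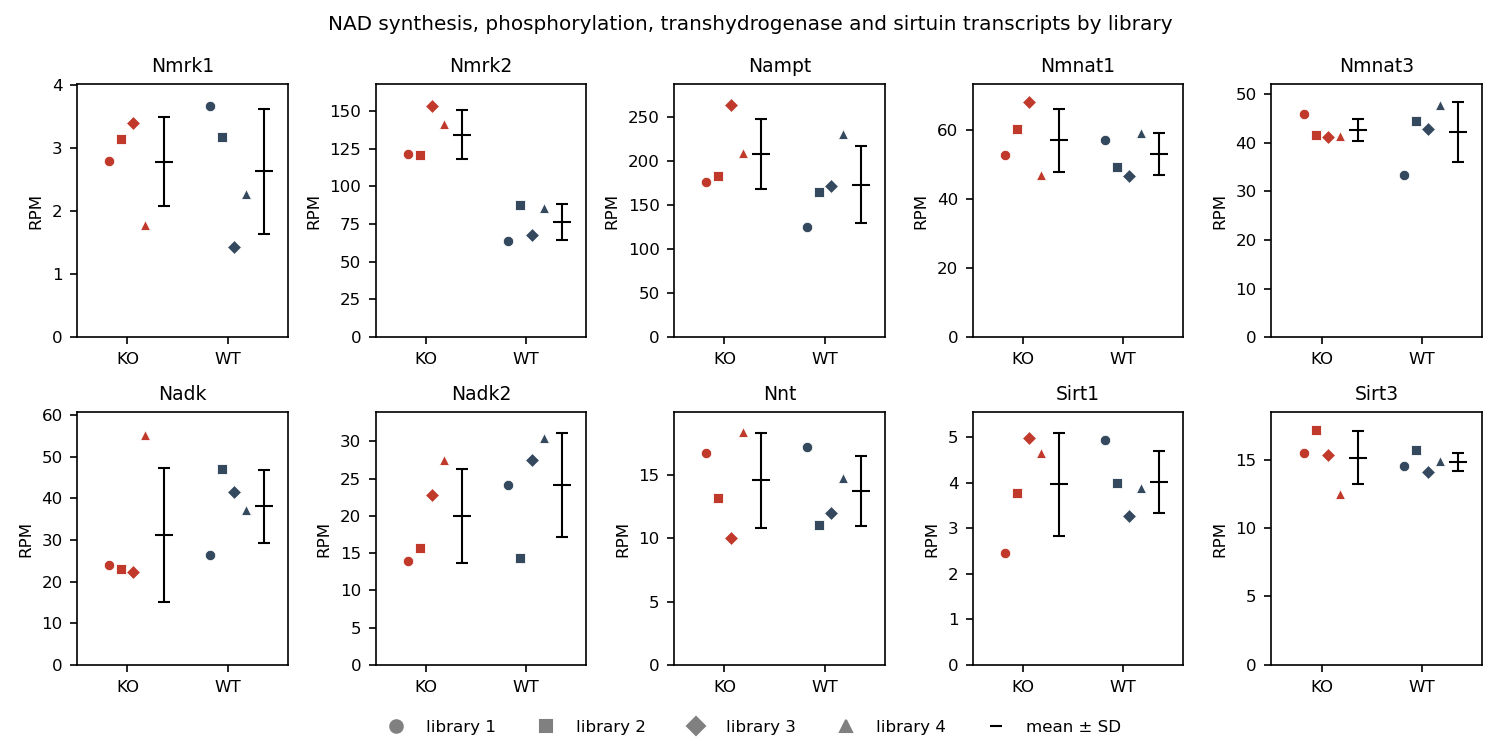
RPM of each of the 10 genes in the 4 KO libraries (red) and the 4 WT libraries (dark blue), marker shape for library 1 to 4, with mean ± SD in black, each panel on its own axis from 0. Nmrk2 is the panel without overlap, at 121 to 154 RPM in KO and 63.9 to 87.5 RPM in WT, and Nadk has 1 KO library at 55.2 RPM above 3 at 22.3 to 24 RPM.

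Summed over the 10 genes, the libraries held 472, 482, 606 and 560 RPM in KO, against 370, 441, 429 and 527 RPM in WT. The groups overlapped, WT 4 lying above KO 1 and KO 2. Nampt and Nmrk2 made up 62.8% to 69.0% of the sum in KO and 51.0% to 60.1% in WT. Within the pairs of related enzymes, the ratio of Nadk to Nadk2 reads (0.977 to 2.01 in KO and 1.09 to 3.28 in WT), of Nmnat1 to Nmnat3 reads (1.13 to 1.65 in KO and 1.09 to 1.71 in WT) and of Nmrk2 to Nmrk1 reads (38.5 to 79.4 in KO and 17.4 to 47.6 in WT) overlapped between the groups.

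By GENCODE M21 on GRCm38, matched by symbol, all 10 are protein-coding genes on 8 chromosomes. Nmrk2 lies on chromosome 10 from 81198170 to 81202051 on the minus strand and is crossed by the antisense gene Atcayos. Nampt lies on chromosome 12 from 32819545 to 32853349 on the plus strand, and Nadk on chromosome 4 from 155562378 to 155591001 on the plus strand. On the plus strand too are Nmrk1 (chromosome 19, 18631950 to 18652428), Nmnat3 (chromosome 9, 98287435 to 98420438) and Nadk2 (chromosome 15, 9071260 to 9110891). On the minus strand are Nmnat1 (chromosome 4, 149467572 to 149485202), Nnt (chromosome 13, 119335448 to 119408997), Sirt1 (chromosome 10, 63319005 to 63381704) and Sirt3 (chromosome 7, 140863666 to 140882309). Nmnat1, Sirt1 and Sirt3 also overlap genes on the other strand (Tmem274 for Nmnat1, Gm16145 for Sirt1, and Psmd13 and Ric8a for Sirt3). On the same strand, Nampt overlaps Gdap10 and Nmnat3 overlaps Gm28530. Nnt overlaps a further protein-coding entry of the same name (119335528 to 119408952). Whether the counting used strand, and which exon each amplicon covers, is not stated in the labels or the table, so reads of such pairs cannot be told apart from the table alone.

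The other genes of NAD metabolism were compared in the same fit, from 7 lists of 82 symbols that hold none of the 10 genes. The table held 79 of them and 62 passed the filter. The lists were chosen with earlier results of these data known, so their counts and p-values are a description. In limma 1 of the 62 (1.61%, against 0.803% of all tested genes) rose and 0 fell. At an unadjusted p under 0.05 there were 6 higher and 1 lower (11.3%, against 16.1% of all tested genes), edgeR called 0 and DESeq2 called 1, the same gene. The groups did not overlap for 2 genes that were higher and 2 that were lower in KO (6.45%, against 9.1% of all). The median log2 fold change was 0.09, against 0.13 over all tested genes. The plot of these genes shows the spread around that median.

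The gene that rose was Me2, which encodes the mitochondrial malic enzyme. It stood in the list of NADPH sources, although ME2 reduces mainly NAD when it turns malate into pyruvate. Me2 stood at 7.56, 7.54, 8.03 and 6.32 RPM in KO, against 2.68, 3.34, 3.71 and 4.21 RPM in WT. All KO libraries lay above all WT libraries, at 19 to 46 reads per library. The spread between libraries was 9.95% of the mean in KO and 18.5% in WT. Counting alone gives 17.4% at the mean depth of this gene, so the close KO values are narrower than counting error. The means were 7.36 ± 0.733 RPM in KO and 3.48 ± 0.644 RPM in WT (SD, n = 4 each), with a log2 fold change of 0.91 (SE 0.18, limma adjusted p = 0.0252, and between 0.0126 and 0.214 over 20 alternatives). The direction held in each of those, and the call was lost in 10 of them. Without KO 1, KO 2 or KO 3 the adjusted p in limma was 0.0883, 0.0745 or 0.0803, without WT 2 or WT 3 it was 0.0736 or 0.0885, and in edgeR it was 0.0536. The part of the marker levels given above in the values of Me2 was not tested.

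**Figure D4:**
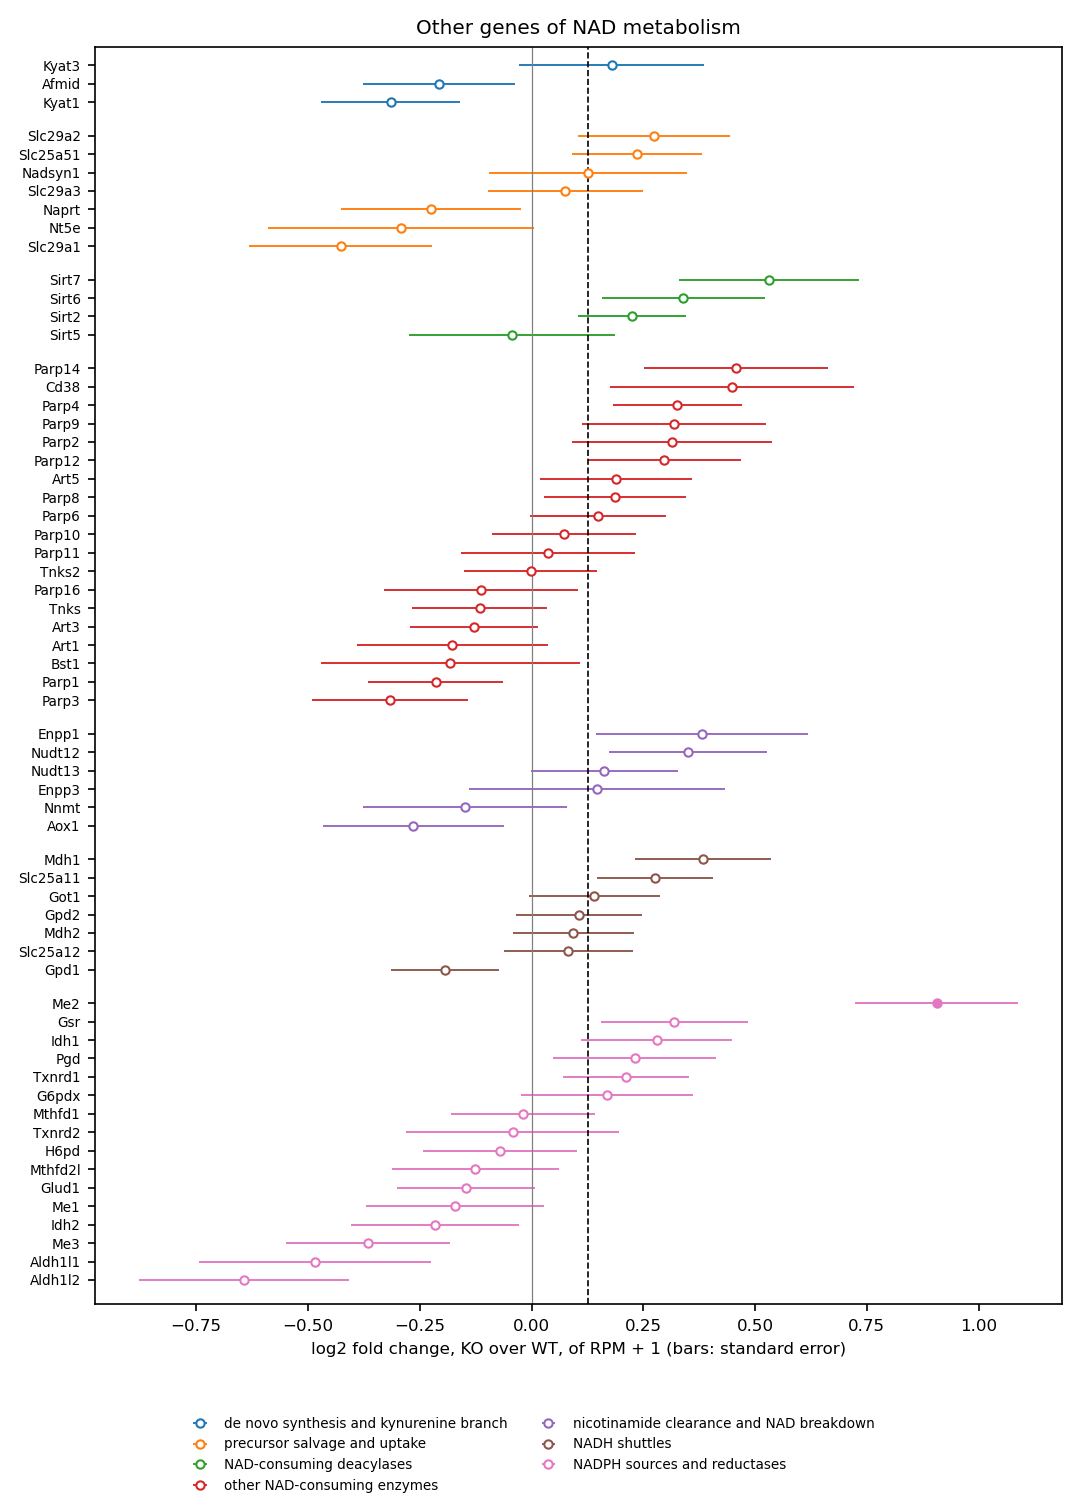
Log2 fold change of KO over WT on the log2(RPM + 1) scale for the 62 tested genes of the 7 NAD lists, coloured by list, with bars for the standard error, a filled point for the gene called by limma and open points for the rest. Me2 is the filled point at 0.91, and the others lie between -0.64 (Aldh1l2) and 0.53 (Sirt7), on both sides of the dashed median of all tested genes at 0.13.

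Genes of de novo synthesis from tryptophan and of the kynurenine branch, held in 1 list, were mostly below the filter in this muscle. Of the 12 genes in that list 9 did not pass the filter, none of them above 1.51 RPM in any library. Tdo2, which opens the route from tryptophan in liver, and Aadat had no read in any. Of the 3 tested, 0 were called by limma, edgeR or DESeq2 and 0 had an unadjusted p under 0.05. Kyat1, a kynurenine aminotransferase of the branch, had a mean of 10.8 ± 1.37 RPM in KO, against 13.6 ± 0.788 RPM in WT without overlap (log2 fold change -0.32, limma adjusted p = 0.33, n = 4 each). The formamidase Afmid had a log2 fold change of -0.21 and the aminotransferase Kyat3, also of the branch, one of 0.18.

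Precursor salvage and uptake held 7 tested genes, of which 0 were called by limma, edgeR or DESeq2 and 0 had an unadjusted p under 0.05. Slc25a51, the carrier that brings NAD into mitochondria, had a mean of 85.9 ± 7.85 RPM in KO, against 73.4 ± 12.2 RPM in WT (log2 fold change 0.24, limma adjusted p = 0.43, n = 4 each). The nucleoside transporters Slc29a1 and Slc29a2, which can take up nicotinamide riboside, had log2 fold changes of -0.43 and 0.27.

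Among the other sirtuins 4 of 5 were tested, and 0 were called by limma, edgeR or DESeq2, with 1 higher at an unadjusted p under 0.05 (Sirt7, named after its values were seen). Sirt2, the mainly cytosolic deacetylase, had a mean of 299 ± 29 RPM in KO, against 255 ± 15.5 RPM in WT (log2 fold change 0.23, limma adjusted p = 0.372, n = 4 each), and 0.09 after TMM rescaling. Sirt5, which removes succinyl groups from mitochondrial proteins, had a mean of 5.35 ± 1.68 RPM in KO, against 5.51 ± 1.58 RPM in WT (log2 fold change -0.04, limma adjusted p = 0.944). The chromatin-bound Sirt6 had a log2 fold change of 0.34. Sirt4 was at most 1.61 RPM and was not tested.

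The list of other NAD-consuming enzymes, mostly of the ADP-ribosyltransferase family, held 19 tested genes, of which 0 were called by limma, edgeR or DESeq2. In limma 2 were higher at an unadjusted p under 0.05 (Parp4 and Parp14, named after their values were seen). A place in this list does not show that a given family member consumes NAD. Art3 and Art1, family members abundant in muscle, had log2 fold changes of -0.13 and -0.18, and the tankyrase Tnks2 one of 0.00. Parp4 (log2 fold change 0.33, limma adjusted p of 0.285) and Parp3 (-0.32, adjusted p of 0.384) were the list's genes without overlap between the groups, and Parp3 too was named after its values were seen. In the list of nicotinamide clearance and NAD breakdown, 6 genes were tested and 0 were called by limma, edgeR or DESeq2, with 0 at an unadjusted p under 0.05. The hydrolases Nudt13 and Nudt12 had log2 fold changes of 0.16 and 0.35, and the aldehyde oxidase Aox1 one of -0.26.

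The shuttles that pass the electrons of cytosolic NADH to mitochondria held 7 tested genes, of which 0 were called by limma, edgeR or DESeq2, with 2 higher at an unadjusted p under 0.05 (Slc25a11 and, named after its values were seen, Mdh1). Slc25a11, the carrier that exchanges malate for 2-oxoglutarate, had a mean of 754 ± 84.4 RPM in KO, against 621 ± 57.8 RPM in WT (log2 fold change 0.28, limma adjusted p = 0.305, n = 4 each). Mdh2, the mitochondrial malate dehydrogenase, and Got1, the cytosolic aspartate aminotransferase, had log2 fold changes of 0.09 and 0.14. In the list of NADPH sources and reductases, 16 genes were tested and Me2 alone was called, with 1 further gene lower at an unadjusted p under 0.05 (Aldh1l2, named after its values were seen). The cytosolic malic enzyme Me1 (-0.17), the mitochondrial isocitrate dehydrogenase Idh2 (-0.22) and the thioredoxin reductase Txnrd1 (0.21) were not called. The median of this list lay 0.18 below that of all tested genes.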

How the data were processed

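Total RNA of tibialis anterior from 4 KO and 4 WT libraries was sequenced on an Ion AmpliSeq mouse transcriptome panel, 1 amplicon per gene, per the labels. The authors deposited RPM values in 1 table, and the tool named is the Transcriptome Analysis Console, per the submitters' processing notes. For aligner, build, read filters and strand, nothing is given in the sources used here. Whole reads were recovered from the deposited RPM (100% of values within 0.05 reads of a whole number). Intervals cover counting error only, since amplicon reads carry no molecular identifiers. All replicate pairs differed by more than sampling noise (lowest chi-square per degree of freedom 8.02). Whether each library is its own animal is not labelled, and p-values then reflect only spread among libraries, which may be technical.

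The test, on log2(RPM + 1) of genes that reached 1 RPM in 4 or more libraries, was limma 3.58.1 (R 4.3.3, genotype, empirical Bayes with trend, two-sided, Benjamini-Hochberg over all tested genes, adjusted p under 0.05), and a fold change on this scale understates low genes. The alternatives were pseudocounts of 0.5 and 5, no filter, a filter of 5 RPM, TMM, quantile normalization, no trend, the replicate number as a block, each library left out, edgeR 4.0.16 (quasi-likelihood) and DESeq2 1.42.0 on recovered reads. A term for libraries with Xist above 10 RPM, and leaving out WT 3 and KO 3, were added after the data were seen. The members and lists were chosen with earlier results of these data known. Named besides the 10 genes are each list's called genes and up to 3 further tested genes with the highest mean RPM. Sirt7, Parp3, Parp4, Parp14, Mdh1 and Aldh1l2 fall outside that rule.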

Additional observations from a re-analysis of the deposited data

Results flagged for a closer look

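In 66 groups of 4 libraries (32 named genes and Sdhc, KO and WT), a library whose gap to its nearest neighbour took a share of the group's range above Dixon's 95% critical value was found 5 times, where chance alone flags about 1 in 20 groups. Nadk reached 55.2 RPM in KO 4, the remaining KO libraries lying between 22.3 and 24 RPM. Idh2, the mitochondrial NADP-dependent isocitrate dehydrogenase, reached 206 RPM in KO 4, the remaining KO libraries lying between 111 and 125 RPM, and the nucleoside transporter Slc29a2 reached 14.8 RPM in KO 4, the remaining KO libraries lying between 11.6 and 12.1 RPM. Nmnat3 reached 46 RPM in KO 1, the remaining KO libraries lying between 41.2 and 41.7 RPM. Its KO spread, 5.35% of the mean, was below the 6.16% that counting alone gives, and for Slc29a2 these were 11.7% and 11.8%. The cytosolic malic enzyme Me1 was low, at 379 RPM in WT 1, the remaining WT libraries lying between 664 and 722 RPM. KO 4 and WT 1 are the libraries with Xist RNA. Sdhc was highest in KO 4 among the KO libraries, at 49.4 RPM against 14.5 to 22.8 RPM in KO 1 to KO 3. The part of Xist or of the Sdhc level in these values was not tested.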

How the results depend on the processing

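Of the 10 genes 1 was called, Nmrk2, and the count stayed at 1 under all alternatives but leaving out WT 3 and, in an alternative chosen after seeing the data, leaving out WT 3 and KO 3, where it was 0; over single libraries left out it ran from 0 to 1. Among the other NAD genes the count of 1 (Me2) became 0 with no filter, with quantile normalization, with the replicate block, in edgeR on recovered reads and without WT 3 and KO 3, and ran from 0 to 1 over single libraries left out. The count over all genes, 89, became 59 with no filter, 240 in DESeq2 on recovered reads, 235 with the Xist term and 9 without WT 3 and KO 3, and ran from 16 to 270 over single libraries left out, the highest without KO 4. With TMM factors it was 39 higher and 65 lower, against 58 higher and 31 lower as deposited, and in edgeR 37 higher and 55 lower. The Sdhc difference of -670 RPM ran from -711 to -637 RPM when a library was left out, where the exact permutation test gave p = 0.0571, its minimum for 3 libraries against 4, and the replicate block (sign flips within numbers, difference -670 RPM) gave p = 0.125, the smallest it can give. Deviations of same-numbered KO and WT libraries had correlations between -0.121 and 0.0791, and those of differently numbered ones between -0.188 and 0.244. These values show no pairing by number, but so few correlations cannot exclude one. The replicate block called 81 genes. Of 638 alternative values of the 32 named genes, 621 moved by less than the spread between replicates or kept their call, 5 moved further (Kyat1 and Sirt2, under rescaling or count models), and 12 lost a call (2 of Nmrk2, 10 of Me2). No value of Nmrk2 or Me2 changed sign, but 48 values of 11 uncalled genes did, 6 of these genes among the 10, all with a log2 fold change of at most 0.18 in size as deposited. Sirt1, at -0.04, became 0.13 without KO 1 and 0.05 without WT 1. Depth limits Nmrk1 and Sirt1, at 10 to 35 reads per library, and also Me2, at 19 to 46.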
